A study of Homo sapiens with 6 samples.

Results

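ZNF225-AS1 is a long noncoding RNA gene in a cluster of KRAB zinc finger genes at 19q13.31, and it is described here with its zinc finger neighbours ZNF225, ZNF224, ZNF223, ZNF222, ZNF230, ZNF284, ZNF234, ZNF226 and ZNF227. The set was selected on the counts of ZNF225-AS1, which were 0 in every knockout library, so its own difference is a description and carries no test. The neighbours were taken by name and position, with earlier results of these data known. Rows for 9 of the 10 genes were analysed, out of 35819 genes in all, and ZNF284 was not analysed here. All 9 passed the filter on low counts, ZNF225-AS1 through its WT libraries alone.

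KRAB zinc finger proteins form the largest family of human transcription factors. Each carries an array of C2H2 zinc fingers that reads DNA and a KRAB domain that recruits the co-repressor TRIM28 (KAP1), which brings in the histone methyltransferase SETDB1 and heterochromatin proteins. Many silence transposable elements, and their genes lie in clusters of tandem copies, in which the last exon usually encodes the finger array. ZNF224, the best studied gene of the set, encodes a repressor of the aldolase gene ALDOA and a partner of the WT1 protein. The other neighbours are less well characterised, and no function of ZNF225-AS1 is assumed here.

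The libraries came from HT1080, a human fibrosarcoma line. The knockout cells were TOP3B knockout HT1080 cells (3 libraries), a line named E2-2 in which CRISPR had been aimed at exon 2 of TOP3B, which encodes topoisomerase III-beta, a topoisomerase of both DNA and RNA. They were set against wild-type (WT) HT1080 cells (3 libraries), and both were grown in the same medium. The study asked how TOP3B acts on R-loops and transcription. Only 1 knockout line was sequenced, and the labels give no separate cultures for the libraries of a group. The p-values therefore rest on the spread among 3 libraries a group, and that spread may be technical. For the WT cells the series text says HCT116 in one place, but every sample label says HT1080.

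Library totals ranged from 18501898 to 20340136 counts in the knockout and from 17919106 to 20475280 in WT. Knockout replicate 3 stood apart. Over 6571 genes with a mean above 4 on the log2 CPM scale, the SD of log2 differences was 0.660 and 0.641 between it and knockout replicates 1 and 2, 0.259 between those, and 0.282 to 0.335 within WT. Against the WT libraries it was 0.484 to 0.523 for knockout replicates 1 and 2 and 0.740 to 0.785 for replicate 3. Knockout replicates 1 and 2 were thus nearer to WT than to replicate 3, which limits every knockout mean and SD. All 6 mesenchymal markers had counts, and their summed level was 14767 to 16222 CPM in the knockout and 22895 to 24268 CPM in WT; CDH11 rose (log2 fold change 2.04), FN1 (-1.89) and TGFBI (-0.84) fell, and VIM, CDH2 and S100A4 did not pass (edgeR). VIM was at 11525 ± 173 CPM in the knockout and 11666 ± 594 CPM in WT (SD, n = 3 each). The part of these differences in the results on the cluster was not tested. Of 6 epithelial and colon markers, KRT20, CDX2 and CDH17 had 0 counts in all 6 libraries. The summed level of the list was 1.46 to 2.20 CPM in the knockout and 1.65 to 2.59 CPM in WT. CDH1, of the same list, was counted in every library, with 28, 27 and 42 counts in the knockout and 28, 48 and 38 in WT. It made up most of that sum, at 1.63 ± 0.451 CPM in the knockout and 1.97 ± 0.428 CPM in WT (SD, n = 3 each). CDKN2A, a gene HT1080 is known to have lost, had 0 counts throughout. MTAP, its neighbour at the same locus, was counted in every library, with 219, 215 and 297 counts in the knockout and 144, 160 and 199 in WT, so these 2 genes do not settle the line's identity. TOP3B itself had 407, 383 and 361 counts in the knockout and 536, 376 and 469 in WT. An edit within an exon need not remove a transcript, so these counts do not check the labels.

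ZNF225-AS1 and ZNF225 start from opposite strands of the same stretch of DNA. In RefSeq (GRCh38.p14) the starts lie 216 bases apart, head to head, and 285 bases of their promoter windows (250 bases before to 50 after each start) are the same sequence. The windows are chr19:44113134-44113433 on the minus strand for ZNF225-AS1 and chr19:44113149-44113448 on the plus strand for ZNF225. Both are printed because the RNA on one strand was not counted in the knockout while the gene on the other was. Capitals mark TTCCCAGAA or its reverse complement TTCTGGGAA, the core of the SBS motif known to be bound by the human factor ZNF143.
ZNF225-AS1: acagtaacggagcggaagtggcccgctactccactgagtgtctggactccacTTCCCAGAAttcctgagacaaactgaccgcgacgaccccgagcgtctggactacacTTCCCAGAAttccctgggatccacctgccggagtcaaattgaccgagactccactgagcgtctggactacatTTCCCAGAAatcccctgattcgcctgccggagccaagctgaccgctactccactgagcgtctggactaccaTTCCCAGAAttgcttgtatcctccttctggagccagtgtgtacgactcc
ZNF225: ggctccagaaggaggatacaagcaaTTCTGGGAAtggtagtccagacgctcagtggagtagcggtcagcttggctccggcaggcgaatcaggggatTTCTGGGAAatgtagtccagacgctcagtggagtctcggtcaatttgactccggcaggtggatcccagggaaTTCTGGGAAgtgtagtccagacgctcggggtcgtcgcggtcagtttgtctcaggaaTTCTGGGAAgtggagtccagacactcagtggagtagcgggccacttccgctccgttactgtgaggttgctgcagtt

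The same 9 letters recur through the set. RefSeq promoter windows matched 9 of the 10 genes, ZNF223 being the other, and all 9 held at least 1 match on either strand, against 361 of 35116 windows of the same length in the table (1.03%). Of 8 windows of other zinc finger genes in the cluster, 5 held it too. The windows of ZNF225-AS1 and ZNF225 held 4 matches each, in their shared DNA, and were the only 2 of the 35116 with 3 or more. An ETS-type motif, CACTTCCG or its reverse complement CGGAAGTG, was found in all 9 windows, in 4 of the 8 others of the cluster and in 1405 of the 35116. The motifs were picked after these sequences had been read, neighbouring zinc finger genes are copies of one another, and a match is only a match of letters. The stretches around the core match nearest the start of each other gene, on its own strand, are shown because they let the shared surround be seen.
ZNF230, chr19:44002897-44002925: aaccggggaaTTCTGGGAAgtggagtcca
ZNF222, chr19:44025269-44025297: gtccggggaaTTCTGGGAAgtggagtcca
ZNF284, chr19:44072081-44072109: atccggggaaTTCTGGGAAatgtagttca
ZNF224, chr19:44094322-44094350: tcccggggaaTTCTGGGAAgtggagtcca
ZNF234, chr19:44141518-44141546: atccggggaaTTCTGGGAAatgtagtccc
ZNF226, chr19:44165035-44165063: tgctgtggaaTTCTGGGAAgcgtagtcca
ZNF227, chr19:44212487-44212515: agcgcgggccTTCTGGGAAgggtagttca

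**Figure D1:**
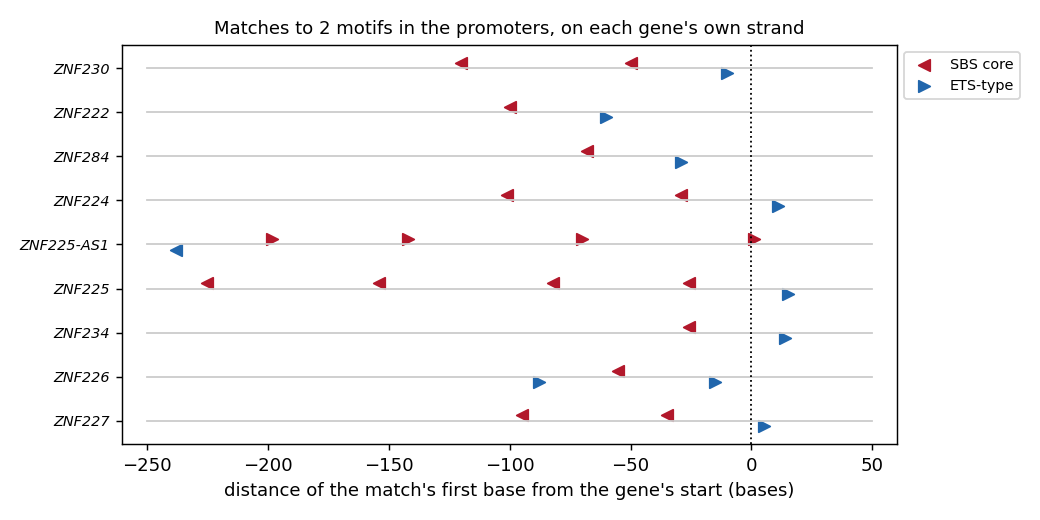
Matches to the SBS core (red) and the ETS-type motif (blue) in the promoter windows of 9 genes, by distance in bases of the match's first base from the gene's start; arrowheads point along the strand of the motif. ZNF225-AS1 and ZNF225 have 4 red marks each, in mirror image, and the other genes have 1 or 2, all before the start.

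ZNF225-AS1 was detected in every WT library and was not counted in the knockout. It had 0, 0 and 0 counts in the knockout libraries, against 82, 96 and 98 in WT. The groups did not overlap, and the 3 WT values differed by no more than 1.04-fold in CPM. Counting error alone gives the WT counts 95% intervals of 65.2 to 102, 77.8 to 117 and 79.6 to 119. These are wider than that spread, so the closeness of the 3 values does not measure how precise they are. Its level averaged 0 CPM in the knockout and 4.79 ± 0.103 CPM in WT (SD, n = 3 each), or 0.967 ± 0.0223 RPKM in WT. At the mean WT level, the 3 knockout libraries would have held 97.3, 95.1 and 93.5 counts. Against a floor of 3 counts over the knockout group, which is 0.0502 CPM, it was at least 95.4-fold lower in the knockout. That bound takes the WT level as measured and covers counting error in the knockout only. It does not cover zeros that arise in the estimation of counts. In bulk RNA, fewer cells with the transcript and less transcript per cell cannot be told apart.

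Few of the genes tested had 0 counts throughout the knockout. Of 13965 genes tested, 10 (0.0716%) had 0 counts in all 3 knockout libraries, and 3 (0.0215%) also had at least 50 in each WT library. These were ZNF225-AS1, GASK1B and FRMPD4, and as the gene was chosen for this pattern nothing is read from the shares. In the other direction, ASTN1 and BIRC3 had 0 in each WT library and at least 50 in each knockout library. Within a single group, 116 genes in the knockout and 89 in WT had 0 in 1 library and at least 50 in another. How the authors' estimates reach 0 was not tested, so a 0 need not mean that no transcript was there.

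The body of ZNF225-AS1 lies across the end of ZNF224. In GENCODE v29 (GRCh38) it spans chr19:44105463-44113145 on the minus strand, with 2 annotated transcripts of 2 exons each. Its long second exon, chr19:44105463-44108337 and 2875 bases in length, lies wholly within ZNF224 exons on the plus strand, most of it in the last exon. That makes 82.4% of its exonic bases antisense to ZNF224 exons, and 1.69% antisense to ZNF225 exons. Of its stretches of 101 bases, the read length, 81.9% occur in ZNF224 transcripts on the other strand, and 0% in any of the other 9 genes' transcripts on the same strand. The library kit keeps strand, but the sources used here do not say whether the counting did. Without strand, reads from the 2875 shared bases cannot be assigned to ZNF225-AS1 or ZNF224. With introns included, the span of ZNF225-AS1 overlaps ZNF224 by 4424 bases (57.6% of ZNF225-AS1) and ZNF225 by 965 bases (12.6%). Whether reads in introns were counted was not tested.

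**Figure D2:**
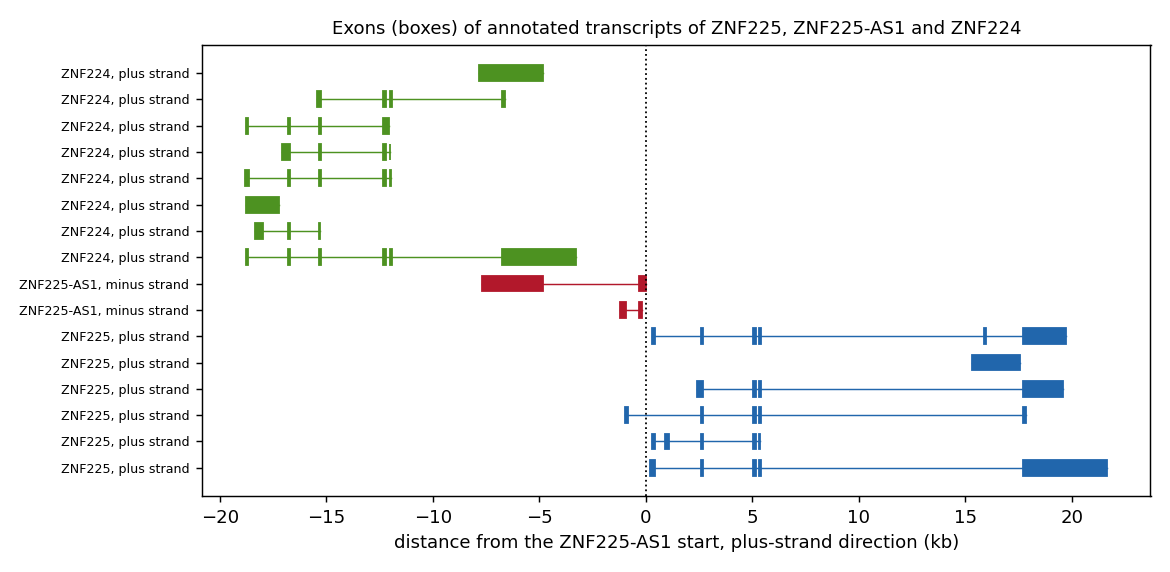
Annotated transcripts of ZNF224 (green), ZNF225-AS1 (red) and ZNF225 (blue), with exons as boxes, by distance in kb from the ZNF225-AS1 start along the plus strand. The long exon of ZNF225-AS1, 2875 bases, lies under ZNF224 exons. Most of ZNF225 lies on the other side of the dotted line at the start of ZNF225-AS1. An annotated ZNF225 transcript begins at -0.964 kb, within ZNF225-AS1, and crosses that line.

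ZNF224, the gene it overlaps, was counted in all 6 libraries and did not pass the test. It had 508, 497 and 338 counts in the knockout and 541, 454 and 242 in WT. The ranges overlapped, and the lowest value of all was WT replicate 3, 2.59-fold below WT replicate 1 in CPM. Its mean level was 22.4 ± 4.45 CPM in the knockout and 21.9 ± 9.50 CPM in WT (SD, n = 3 each). The difference, 0.04 ± 0.35 (SE) as a log2 fold change, did not pass (adjusted p = 0.961, edgeR's quasi-likelihood test, Benjamini-Hochberg adjustment over all genes tested). The WT counts of ZNF225-AS1 came to 15.2% to 40.5% of those of ZNF224. The value turned on single WT libraries, at 0.35 without WT replicate 1 and -0.27 without WT replicate 3. Added together after the data were seen, as a description with no test because the counts of ZNF225-AS1 chose the set, both genes were at 22.4 ± 4.45 CPM in the knockout and 26.7 ± 9.43 CPM in WT (SD, n = 3 each).

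ZNF225, which shares the promoter, was counted in every library. The values were 152, 71 and 80 counts in the knockout and 121, 144 and 182 in WT. Knockout replicate 1 lay within the WT range, and replicates 2 and 3 lay below it. Its mean level was 5.05 ± 2.12 CPM in the knockout and 7.71 ± 1.09 CPM in WT (SD, n = 3 each). As a log2 fold change this was -0.61 ± 0.32 (SE), short of the threshold (edgeR adjusted p = 0.299). It was -1.01 without knockout replicate 1, which did not pass either (edgeR adjusted p = 0.103, in a range up to 0.522 with 1 library left out). The WT counts of ZNF225-AS1 were 53.8% to 67.8% of those of ZNF225. The sum of both, likewise formed after the data were seen and given with no test, was 5.05 ± 2.12 CPM in the knockout and 12.5 ± 1.14 CPM in WT (SD, n = 3 each).

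**Figure D3:**
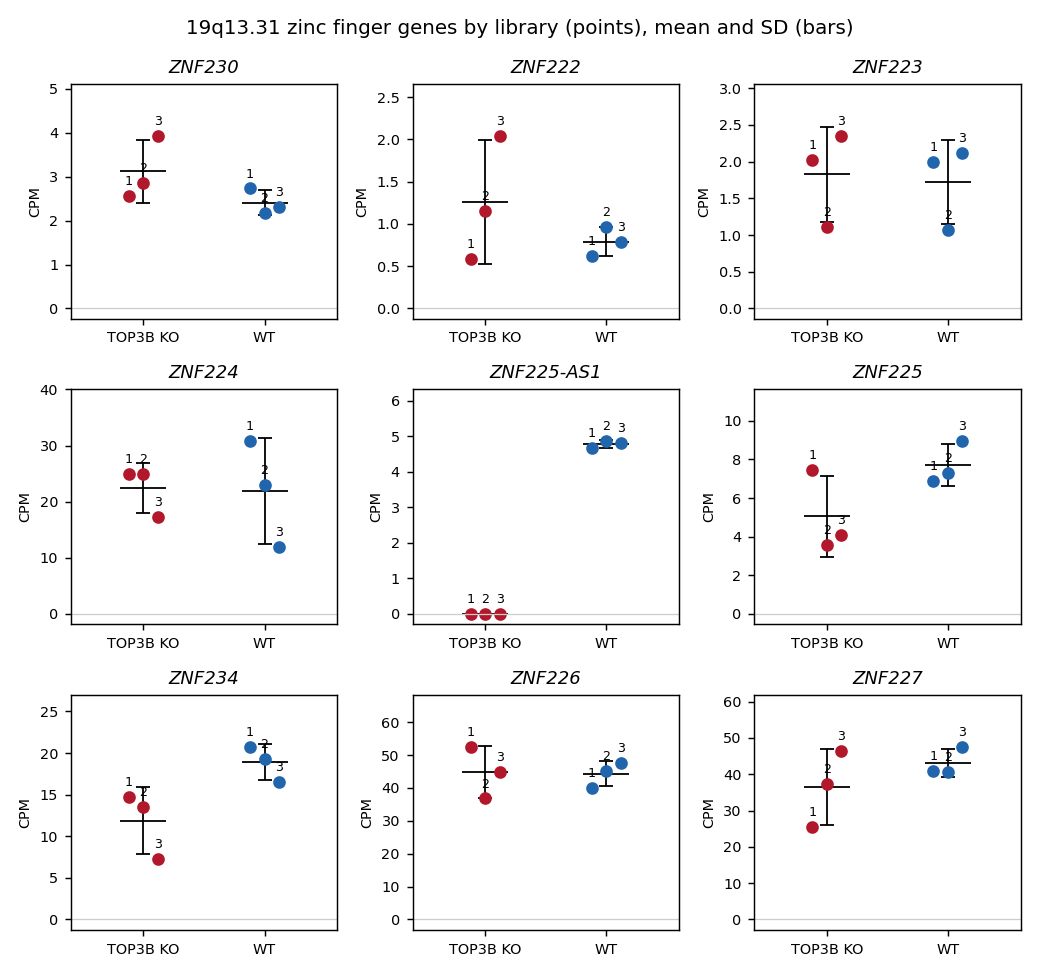
CPM of each gene in the 3 knockout (left, red) and 3 WT (right, blue) libraries, numbered by replicate, with the mean and SD as bars; panels follow the order along the chromosome. ZNF225-AS1 is at 0 in the knockout and between 4.67 and 4.87 CPM in WT, ZNF234 has its knockout points below its WT points, and the groups overlap in the other 7 panels.

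None of the 8 neighbours tested passed an adjusted p of 0.05 (edgeR's quasi-likelihood test), where 7.84% of all 13965 genes did, 3.21% higher and 4.63% lower in the knockout. At an unadjusted p under 0.05 there was 1, ZNF234, and the share of all genes under that value was not taken. Neither DESeq2 nor limma-voom called any neighbour, where they called 2199 and 1114 of all 13965 genes. They had a median log2 fold change of 0.02, against 0.05 over all genes tested, with 5 above 0 and 3 below. In 1 of the 8 the 3 knockout values lay on one side of the 3 WT values, where 33.6% of all genes did. Summed, the 8 genes gave 130.5, 121.5 and 128.3 CPM in the knockout and 144.9, 139.7 and 137.9 CPM in WT, so the sums did not overlap. The genes with a lower knockout mean were ZNF234, ZNF227 and ZNF225, and the other 5 had a higher one. How often such sums separate was not tested.

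ZNF234 was the neighbour whose groups did not overlap. It had 300, 269 and 143 counts in the knockout and 365, 381 and 337 in WT. Knockout replicate 3 was the lowest at 7.32 CPM, about 2.02-fold below replicate 1. The mean was 11.9 ± 3.99 CPM in the knockout and 18.9 ± 2.14 CPM in WT (SD, n = 3 each). Its log2 fold change of -0.67 ± 0.28 (SE) had an unadjusted p of 0.0470 and an edgeR adjusted p of 0.196, and was -0.43 without knockout replicate 3.

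ZNF226 and ZNF227, the genes that follow ZNF234 on the chromosome, were the most abundant in counts. ZNF226 had 1069, 731 and 875 counts in the knockout and 704, 890 and 969 in WT. In CPM its highest value, knockout replicate 1, and its lowest, knockout replicate 2, were in the same group, and the log2 fold change was 0.01 ± 0.16 (SE, edgeR adjusted p = 0.966), or -0.12 without the one and 0.14 without the other. ZNF227 had 518, 743 and 908 counts in the knockout and 720, 803 and 968 in WT. Knockout replicate 1 was low at 25.5 CPM, while replicate 3, at 46.5 CPM, lay within the WT range of 40.7 to 47.6 CPM. The log2 fold change was -0.24 ± 0.22 (SE, edgeR adjusted p = 0.544). It was -0.04 without knockout replicate 1 and -0.46 without knockout replicate 3, and neither passed (edgeR adjusted p = 0.907 and 0.164). Its last 8540 bases overlap ZNF235 on the other strand.

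ZNF230, ZNF222 and ZNF223, at lower coordinates than ZNF284, were low. ZNF230 had 52, 57 and 77 counts in the knockout and 48, 43 and 47 in WT, with an overlap in CPM and a log2 fold change of 0.37 ± 0.29 (SE, edgeR adjusted p = 0.472), which was 0.16 without knockout replicate 3. ZNF222 had 12, 23 and 40 counts in the knockout and 11, 19 and 16 in WT. Its log2 fold change of 0.67 ± 0.52 (SE, edgeR adjusted p = 0.472) was 0.13 without knockout replicate 3, the library with 40 counts. ZNF223 had 41, 22 and 46 counts in the knockout and 35, 21 and 43 in WT, so each group had 1 low library of like size, and the log2 fold change was 0.08 ± 0.43 (SE, edgeR adjusted p = 0.926). It ranged from -0.17 without WT replicate 2 to 0.34 without knockout replicate 2.

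The order of the genes by level was compared in RPKM, which is per kilobase of a length set by the authors. For ZNF230, ZNF222, ZNF223, ZNF225, ZNF234, ZNF226 and ZNF227 the length implied by count and RPKM was 0.968 to 1.02 times the mean genomic span of the gene's GENCODE transcripts, introns included. For ZNF225-AS1 and ZNF224 the ratio was 1.11 and 1.31. For the genes first named, levels are thus per kilobase of a length near the span. That length was 6568 bases in ZNF230, near its 6298 exonic bases, and 17161 in ZNF227, against 5069 exonic bases. For ZNF224 it was 8305, against a mean span of 6324 and 7104 exonic bases. The order is therefore not one per kilobase of mature RNA, and the lengths differ in kind between genes. In the knockout the order was ZNF226 at 4.73 ± 0.831 RPKM, ZNF224 at 2.74 ± 0.470, ZNF227 at 2.18 ± 0.688, ZNF234 at 0.939 ± 0.293, ZNF230 at 0.487 ± 0.130, ZNF225 at 0.363 ± 0.148, ZNF222 at 0.210 ± 0.134, ZNF223 at 0.171 ± 0.0636 and ZNF225-AS1 at 0 RPKM (SD, n = 3 each). Clear steps, with no overlap of libraries, lay there between ZNF226 and ZNF224, between ZNF227 and ZNF234, and above ZNF225-AS1, and the libraries of all other neighbours in that order overlapped. In WT the order was ZNF226 at 4.51 ± 0.419 RPKM, ZNF224 at 2.58 ± 1.11, ZNF227 at 2.46 ± 0.254, ZNF234 at 1.45 ± 0.152, ZNF225-AS1 at 0.967 ± 0.0223, ZNF225 at 0.537 ± 0.0819, ZNF230 at 0.359 ± 0.0434, ZNF223 at 0.152 ± 0.0540 and ZNF222 at 0.125 ± 0.0264 RPKM (SD, n = 3 each). Here ZNF224 and ZNF227 overlapped, as did ZNF223 and ZNF222, and the other steps did not. Per kilobase of these lengths, ZNF225-AS1 was therefore above ZNF225 in each WT library and below ZNF234.

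Of the remaining zinc finger genes of the cluster, 10 were tested, of which 1 fell, 0 rose and 9 did not pass, against 7.84% called and 4.63% lower over all genes. A share of 1 in 10 is near that background. The 11 listed genes, the 10 and ZNF233, summed to 103.6, 101.9 and 102.5 CPM in the knockout and 138.9, 137.3 and 133.8 CPM in WT, with no overlap. Their median log2 fold change was -0.55, against 0.05 over all genes tested, with 8 below 0 and 2 above, and in 5 of the 10 all knockout values lay below all WT values, where 17.1% of all genes did. ZNF229 fell 1.74-fold, with 267, 356 and 345 counts in the knockout and 499, 568 and 559 in WT (log2 fold change -0.80 ± 0.16 SE, edgeR adjusted p = 0.0331). This call was lost, at an edgeR adjusted p of 0.0773 to 0.127, without any 1 of knockout replicates 1 and 2 and WT replicates 1, 2 and 3. It was also lost with limma on log2(RPKM + 1) and log2(RPKM + 0.1), at limma adjusted p of 0.0583 and 0.0633. ZNF285 had 43, 50 and 4 counts in the knockout and 85, 127 and 161 in WT, which did not pass (log2 fold change -1.98 ± 0.73 SE, edgeR adjusted p = 0.155). With all libraries it passed with DESeq2 (adjusted p = 0.0481) and with limma on log2(RPKM + 1) (adjusted p = 0.0431). It also passed, at -1.47, without knockout replicate 3, the library with 4 counts (edgeR adjusted p = 0.0284), and across alternatives its adjusted p reached 0.320. ZNF404, ZNF45 and ZNF235 had log2 fold changes of -0.87 ± 0.35, -0.68 ± 0.27 and -0.60 ± 0.22 (SE), and ZNF112 of -0.49 ± 0.28. ZNF180, the last gene of the cluster, was at 40.9 ± 6.55 CPM in the knockout and 39.4 ± 4.62 CPM in WT (SD, n = 3 each). Over chromosome 19 as a whole, 928 genes tested had a median of 0.14, with 38 called higher and 22 lower.

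**Figure D4:**
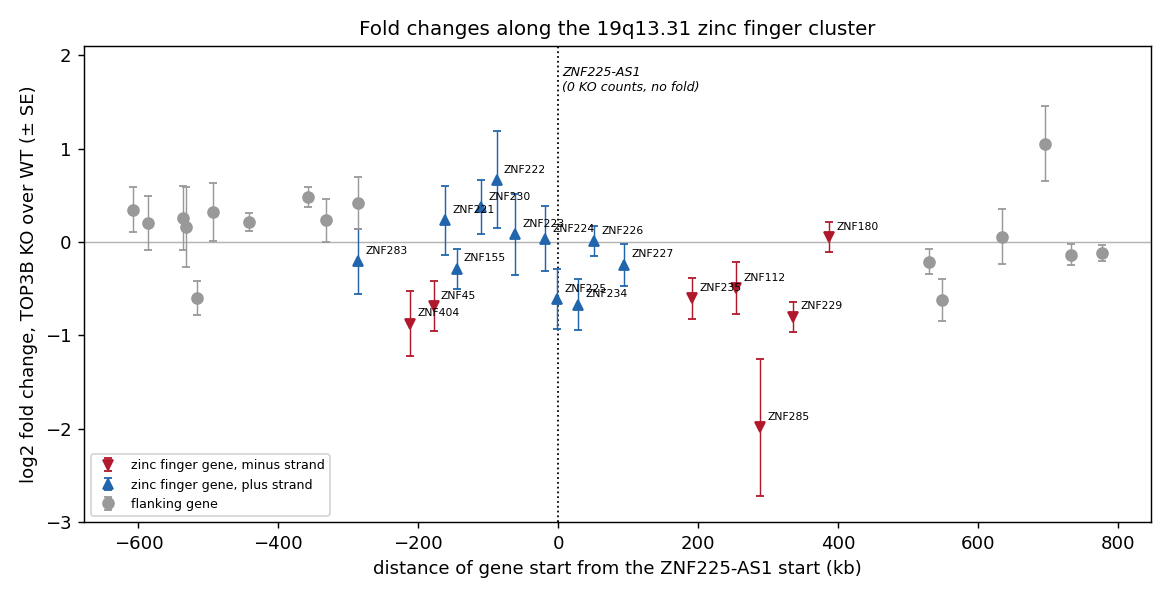
Log2 fold changes, knockout over WT, with SE, against the distance of each gene's start from that of ZNF225-AS1 in kb; red triangles are minus-strand and blue triangles plus-strand zinc finger genes, and grey points are flanking genes. ZNF285 is the lowest at -1.98, and the 8 neighbours lie between -0.67 and 0.67. ZNF225-AS1 has no point because the set was selected on its counts, so no fitted fold change is shown for it.

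Outside the cluster, of 24 listed flanking genes 16 were tested, of which 1 rose, 0 fell and 15 did not pass, a share near the 7.84% called and 3.21% higher over all genes. Their median was 0.21 as a log2 fold change, with 11 above 0 and 5 below. The gene that rose was SMG9, a factor of nonsense-mediated decay, at 130 ± 12.7 CPM in the knockout and 93.5 ± 3.29 CPM in WT (SD, n = 3 each; 1.39-fold, log2 fold change 0.48 ± 0.11 SE, edgeR adjusted p = 0.0409). It no longer passed without any 1 of knockout replicates 1 and 2 and WT replicates 1, 2 and 3, where the adjusted p was 0.115 to 0.157, nor without the filter on low counts (edgeR adjusted p = 0.0581).

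The co-repressor genes through which KRAB proteins act were measured beside them. Of 12 tested, HDAC1 rose and CHD3 fell, where 7.84% of all genes were called, and the median of the 12 log2 fold changes was -0.01, against 0.05 over all genes. TRIM28 was at 1653 ± 265 CPM in the knockout and 1543 ± 133 CPM in WT (SD, n = 3 each; log2 fold change 0.10 ± 0.13 SE). CHD3, a chromatin remodeller of the NuRD complex, fell 1.51-fold to 145 ± 17.6 CPM in the knockout, against 219 ± 12.7 CPM in WT (SD, n = 3 each; edgeR adjusted p = 0.0284). HDAC1, a histone deacetylase, rose to 26.3 ± 2.03 CPM in the knockout, against 17.6 ± 0.390 CPM in WT (SD, n = 3 each; edgeR adjusted p = 0.0423). Both calls were lost without any 1 of knockout replicates 1 and 2 and WT replicates 1, 2 and 3, at an edgeR adjusted p of 0.0675 to 0.157. That of HDAC1 was also lost without the filter on low counts (edgeR adjusted p = 0.0823) and with limma on log2(RPKM + 1) and log2(RPKM + 0.1) (adjusted p = 0.0656 and 0.0571), where CHD3 still passed. SETDB1 had a log2 fold change of -0.60 ± 0.18 (SE) in all libraries, which did not pass with edgeR (adjusted p = 0.0959) and passed with DESeq2 (adjusted p = 0.0228). It was -0.78 without knockout replicate 3, which passed (edgeR adjusted p = 0.0158, with 0.252 the highest of its alternatives).

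Among 7 genes reported as partners or targets of ZNF224, edgeR and DESeq2 called 0, and 0 were under an unadjusted edgeR p of 0.05. With 7.84% of all genes called by edgeR and 2199 of 13965 by DESeq2, a count of 0 among 7 does not set them apart. The share of all genes under the unadjusted p was not taken. The median log2 fold change of the 7 was 0.06. ALDOA was at 65.5 ± 5.34 CPM in the knockout and 74.4 ± 5.22 CPM in WT, and the receptor tyrosine kinase gene AXL was at 1328 ± 12.4 CPM in the knockout and 1186 ± 138 CPM in WT (SD, n = 3 each). WT1 was low, with 11, 18 and 19 counts in the knockout and 8, 10 and 62 in WT.

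Genes whose pattern was most like that of ZNF225-AS1 were found by Pearson's r of log2(CPM + 1) over the 6 libraries, as a description. They were SCIN, an actin-severing protein gene, the amino acid transporter gene SLC43A2, the glycosyltransferase gene GALNT6, the acyl-CoA thioesterase gene ACOT2 and GASK1B, all with r of 0.999. With 3 knockout values at 0 the measure mostly finds genes that are lower and tight within groups, and 528 of 13956 genes reached 0.95. SCIN had 1, 2 and 0 counts in the knockout and 321, 342 and 402 in WT. GASK1B had 0 in each knockout library and 85, 86 and 88 in WT. SLC43A2, by contrast, was at 12.2 ± 0.157 CPM in the knockout and 22.3 ± 0.425 CPM in WT (SD, n = 3 each).

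By summed WT counts, ZNF225-AS1 ranked 3 among 1650 genes that had counts in WT and 0 in every knockout library, before any filter. In the other direction, 1518 genes had counts in the knockout and 0 in every WT library. The genes around it were ZDBF2, LRCH2, GASK1B, DAGLA and SLC46A3. ZDBF2, an imprinted gene, had 0 in each knockout library and 340, 0 and 438 in WT. LRCH2 had 0, 0 and 363 in WT, and DAGLA 93, 135 and 0. Of these 5, GASK1B and SLC46A3 had counts in every WT library, as ZNF225-AS1 did.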

How the data were processed

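Total RNA from 6 libraries was depleted of ribosomal RNA and sequenced with paired reads of 101 bases from a directional kit, per the labels' protocols. The authors deposited an estimated count per gene and library, rounded to whole numbers, and RPKM for the same genes, per the file headers and the values. Salmon 1.10.1 and hg19 are named, per the submitters' processing notes, with no role. Positions and promoters come from GENCODE v29 and RefSeq on GRCh38, and no hg19 position was used.

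Of 35820 genes, 1 named differently in the 2 tables was left out. In R 4.3.3, edgeR 4.0.16 was used for the filter (filterByExpr), the TMM scaling and the quasi-likelihood test. P-values were adjusted by Benjamini-Hochberg over 13965 genes, with a threshold of 0.05. CPM uses TMM-scaled library sizes, standard errors come from the F statistic, and the model has 4 residual degrees of freedom. Alternatives used DESeq2 1.42.0 and limma 3.58.1 (voom, and trend on log2(RPKM + 1) and log2(RPKM + 0.1)), other scalings, other filters and each library left out. Floors of 3 counts cover counting error only. The tests were tried on simulated data. Chi-square per degree of freedom was 11.3 or more in every pair of libraries, so none was a copy of another.

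The members and lists were chosen with earlier results of these data known. Named genes were all members, TOP3B, up to 6 called genes per list or else the 2 most abundant, and 2 sets of 5 genes like ZNF225-AS1. Other genes were named after their values were seen. WT labels carry replicate numbers and knockout labels do not.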

Additional observations from a re-analysis of the deposited data

How the results depend on the processing

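No paired analysis was possible because the knockout labels carry no replicate number. The 8 neighbours had 0 calls under each of the 15 alternatives (7 genes were tested at 1 CPM in 3 libraries), and the partners and targets of ZNF224 had 0 as well. The genes called in all, 1095, became 2199 with DESeq2 and 223 to 1899 with 1 library left out. Calls among the other cluster genes, 1 in the main test, were 2 with DESeq2, 0 on log2(RPKM + 0.1) and 0 to 2 with 1 library left out. Among flanking genes, 1 in the main test, they were 0 without a filter, 2 with DESeq2 and 0 to 3 with 1 library left out. Among co-repressor genes, 2 in the main test, they were 1 without a filter, 4 with DESeq2, 1 on log2(RPKM + 1), 1 on log2(RPKM + 0.1) and 0 to 3 with 1 library left out. The cause was not tested. The WT mean of ZNF225-AS1 was 4.69 to 4.81 CPM over the other scalings. The median log2 fold change of the neighbours changed sign with the libraries used, at -0.07 without WT replicate 2, -0.05 without WT replicate 3 or knockout replicate 1, and -0.07 without knockout replicate 3. Depth limits ZNF222 most, at 11 to 40 counts per library.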

Other observations

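The log2 fold changes of the cluster's zinc finger genes are given here by strand, a split made after the values were seen and not tested. Of the 7 tested genes on the minus strand other than ZNF225-AS1 (ZNF404, ZNF45, ZNF235, ZNF112, ZNF285, ZNF229 and ZNF180), 6 had a log2 fold change below 0, with a median of -0.68. Among the 7, 1 passed the test, ZNF229, where 7.84% of all genes were called and 4.63% were called lower. Of the 11 on the plus strand (the 8 neighbours, ZNF221, ZNF155 and ZNF283), 5 were below 0, with a median of 0.01. All 7 minus-strand genes were other cluster genes and all 8 neighbours were on the plus strand, so the split by strand largely repeats that division. Over chromosome 19, 36.8% of minus-strand genes and 39.5% of plus-strand genes were below 0. The minus-strand median was below the plus-strand median in the main test, and without knockout replicate 3 the values were -0.53 and -0.15.

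The level of CHD4, a helicase gene of the NuRD complex that dividing human cells usually express well, was 0.840 ± 0.487 CPM in the knockout and 0.472 ± 0.161 CPM in WT (SD, n = 3 each). It is given after its value was seen, as a gene whose low count was present in both groups.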
